A study of Homo sapiens with 2 samples.

Results

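The SLC25 family holds the carrier proteins that move nucleotides, amino acids, carboxylates, phosphate, iron and cofactors across the inner mitochondrial membrane. The genes described here are the protein-coding genes of a RefSeq gene table (GRCh38.p14, the same build as hg38) whose symbol starts with SLC25A, without the erythroid carriers SLC25A37 and SLC25A38. They number 46 of 19821 protein-coding genes on chromosomes 1 to 22 and X and lie on 19 of these chromosomes. Start positions came from PRO-cap, a nuclear run-on assay that maps nascent RNA by its 5' end. The samples were 2 biological replicates of wild-type HUDEP-2, a human erythroid progenitor line that grows without limit and can be matured in culture, and no treatment, second genotype or second cell type was part of the design. The deposited data are 1 list of called start positions per strand, in all 26395 calls, without a value per replicate and with a score of 0 throughout. The depth behind a call is therefore unknown, no spread between replicates can be given, and absence of a call does not show absence of transcription. The cell type was checked against markers. All 8 erythroid markers tested, among them GATA1, KLF1, ALAS2, AHSP, HBB and EPOR, had a called start, and none of 4 markers of other lineages (CD3E, CD14, ALB and GP1BA) had one.

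Most SLC25 carriers are built alike, from repeated pairs of membrane helices, and differ in the substrate that they bind. Many tissues share a common set of carriers for phosphate, ADP and ATP, citrate and cofactors, while other members are best known from liver, brain, muscle, kidney or testis. In red cell precursors, carriers supply the mitochondrial steps of haem and iron-sulphur cluster synthesis. A promoter in mammalian cells often fires on both strands, so that a start on the gene strand is accompanied by a divergent start a short distance upstream.

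Start calls were those that pointed into a gene from no more than 500 bp inside or outside either of its outer ends. Of the 46 carriers, 27 had such a call (58.7%, 95% Wilson interval 44.3 to 71.7), against 41.4% of all protein-coding genes. Intervals here cover counting error only, over lists chosen with earlier results of these data known. An interval that spans or misses the share over all genes is therefore no test of a difference. A further 7 carriers held other calls in the gene or within 1000 bp of it, and 12 held none. With any such call counted, the carriers had 34 of 46 (73.9%, 59.7 to 84.4) and all protein-coding genes 53.3%.

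**Figure D1:**
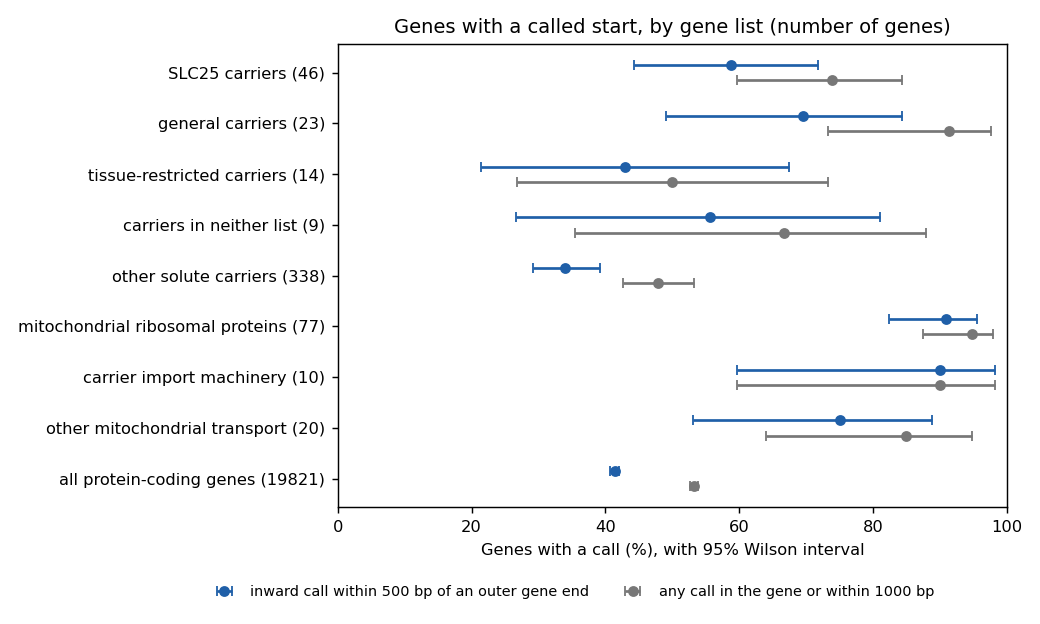
Share of genes with a call, in percent, for the carriers, their subsets, comparison lists and all protein-coding genes (number of genes in brackets). Points are shares and bars 95% Wilson intervals, blue for start calls at an outer gene end and grey for calls of any kind inside or up to 1000 bp away. The general carriers lie at 69.6% (blue) and 91.3% (grey), and the blue point of the tissue-restricted carriers lies at 42.9%.

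The sequences around 16 called starts are shown first, because they hold the base at which each start was placed. They were cut from the RefSeq promoter table (GRCh38.p14), which listed a start for 39 of the 46 carriers. The other 7, among them SLC25A2, SLC25A32 and SLC25A41, had no entry. Each line runs 5' to 3' on the strand of the gene, with 30 bases before the called base and 10 from the called base on. Capitals mark the called base and the base after it. In the first 9 lines these letters are C and A, the commonest pair of an initiator, the element at which RNA polymerase II starts. These are all 9 carriers found with this pair, whereas only some of the other called starts are printed. The printed lines are thus no measure of its share, which is given below.
SLC25A1, the citrate carrier, chr22:19178757-19178796, reverse: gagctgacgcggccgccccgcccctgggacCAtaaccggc
SLC25A12, an aspartate-glutamate carrier, chr2:171894236-171894275, reverse: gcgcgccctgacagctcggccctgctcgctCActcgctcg
SLC25A14, an uncoupling-like carrier, chrX:130339923-130339962, forward: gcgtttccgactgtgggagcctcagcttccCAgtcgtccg
SLC25A17, a peroxisomal carrier, chr22:40819367-40819406, reverse: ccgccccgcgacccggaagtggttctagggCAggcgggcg
SLC25A22, a glutamate carrier, chr11:796198-796237, reverse: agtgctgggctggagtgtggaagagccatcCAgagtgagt
SLC25A23, an ATP-Mg/phosphate carrier, chr19:6459762-6459801, reverse: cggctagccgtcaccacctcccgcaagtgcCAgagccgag
SLC25A25, an ATP-Mg/phosphate carrier, outer start, chr9:128068203-128068242, forward: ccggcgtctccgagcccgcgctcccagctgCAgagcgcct
SLC25A33, a pyrimidine nucleotide carrier, chr1:9539458-9539497, forward: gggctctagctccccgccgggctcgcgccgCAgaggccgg
SLC25A36, a pyrimidine nucleotide carrier, chr3:140941835-140941874, forward: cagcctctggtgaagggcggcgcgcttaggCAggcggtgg
SLC25A4, the ADP/ATP carrier of heart and muscle, chr4:185143235-185143274, forward: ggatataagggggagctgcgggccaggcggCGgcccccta
SLC25A5, the ADP/ATP carrier of dividing cells, chrX:119468414-119468453, forward: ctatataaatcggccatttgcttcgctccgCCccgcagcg
SLC25A39, the glutathione carrier, chr17:44324818-44324857, reverse: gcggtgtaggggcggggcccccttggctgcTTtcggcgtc
SLC25A25, inside start, chr9:128098481-128098520, forward: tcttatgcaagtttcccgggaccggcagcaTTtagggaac
SLC25A26, the S-adenosylmethionine carrier, chr3:66220982-66221021, forward: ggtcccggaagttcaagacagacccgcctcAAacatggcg
SLC25A28, an iron carrier, chr10:99620398-99620437, reverse: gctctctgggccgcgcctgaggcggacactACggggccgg
SLC25A46, an outer membrane member, chr5:110738990-110739029, forward: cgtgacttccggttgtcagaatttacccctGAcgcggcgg

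The step from C to A sat at the same place in carriers as in other genes. Of 23 carriers whose called start lay inside the promoter window with room on both sides, 9 (39.1%) had C at the called base and A at the next base downstream. The share over all protein-coding starts in such windows was 36.9% (2369 of 6413). When the A was asked for at the called base itself, the shares were 4.35% for the carriers and 1.31% for all. Forward and reverse starts of all genes showed the same, with 37.2% and 36.7% at the next base. The step was thus commonest with its A 1 base downstream of the deposited position, and positions and distances are printed here as deposited. A pyrimidine followed by a purine, the looser form of the initiator, stood at the same place in 10 of the 23 carriers (43.5%) and in 47.1% of all starts. With the purine at the called base itself the looser form was found in 9 of the 23 carriers (39.1%) and in 30.8% of all starts. Its place was thus less sharp in the carriers than that of the step from C to A.

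**Figure D2:**
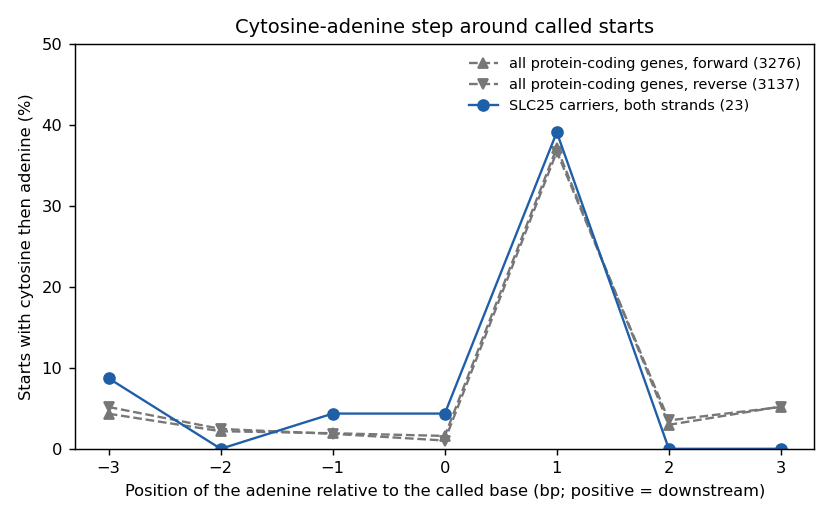
Share of called starts with a cytosine followed by an adenine, in percent, against the position of the adenine relative to the called base, in bp. Blue points are 23 SLC25 carriers and grey triangles all protein-coding genes by strand. All 3 curves are highest at 1 bp downstream, at 39.1% for the carriers and 37.2% and 36.7% for forward and reverse starts.

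General and tissue-restricted carriers were set side by side. The lists follow textbook knowledge of where each carrier is found, and the difference between them was not tested. Of 23 general carriers 16 had a start call (69.6%, 49.1 to 84.4), and of 14 tissue-restricted carriers 6 had one (42.9%, 21.4 to 67.4), the last near the 41.4% of all protein-coding genes. Of 9 carriers placed in neither list 5 had a start call (55.6%, 26.7 to 81.1). Only 2 general carriers, SLC25A6 and SLC25A24, held no call of any kind, while 7 of the 14 tissue-restricted carriers held none. Over all protein-coding genes 9266 of 19821 held no call of any kind. The share of tissue-restricted carriers with any call had an interval of 26.8 to 73.2%, which spans the 53.3% of all protein-coding genes. The 7 tissue-restricted carriers without any call were SLC25A2, SLC25A18, SLC25A27, SLC25A30, SLC25A31, SLC25A47 and SLC25A52. In neither list SLC25A34, SLC25A43 and SLC25A48 held no call.

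The 6 tissue-restricted carriers with a start call were SLC25A4, SLC25A12, SLC25A13, SLC25A14, SLC25A15 and SLC25A41. SLC25A12 and SLC25A13 are carriers of the malate-aspartate shuttle, which works in general metabolism as well. Whether such a wider role bears on a call was not tested. A narrower list of 8 carriers whose main tissue is least in doubt had 2 with a start call (25.0%, 7.15 to 59.1), SLC25A4 and SLC25A41. The interval spans the 41.4% of all protein-coding genes. In both lists SLC25A41 counts only through a call 385 bp outside its end, and no listed start gave its direction.

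Carriers of ADP and ATP export the product of the respiratory chain. SLC25A4 and SLC25A5 had a call, and SLC25A6 and the testis carrier SLC25A31 had none. The call of SLC25A4 lay at position 185143265 of chromosome 4, 1 bp outside the gene end, with a divergent call 130 bp upstream. SLC25A5 was called on the annotated first base itself, at 119468444 of chromosome X. It had no divergent partner, but a reverse call 634 bp inside the gene, 42 bp inside the upper end of the antisense transcript SLC25A5-AS1.

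SLC25A6 lies at 1386152 to 1392113 of chromosome X, in a region that X and Y share. The promoter table lists 17 protein-coding genes with the same start on X and Y, of which 14 lie before the first call on X (3713650). Of the 17 genes 1 had a call. Absence of a call at SLC25A6 is therefore no measure of its transcription here.

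Among the ATP-Mg/phosphate carriers, which set the size of the adenine nucleotide pool, SLC25A23 was called 21 bp inside its end and SLC25A25 1 bp inside. SLC25A24 had 2 listed RefSeq starts and no call. The call counted for SLC25A41 lay 385 bp outside its lower end, the farthest of all 27 and the nearest to the limit of 500 bp. It pointed away from KHSRP, whose upper end lay 841 bp behind it, and the promoter table places KHSRP on the reverse strand with that end as its start. A reverse call lay 358 bp inside the same end of SLC25A41. No promoter entry gave the direction of SLC25A41, so whether the outside call starts the carrier was not tested. SLC25A46, with a call 875 bp inside its outer end, was the carrier nearest to the limit on the other side.

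Of the carriers of other nucleotides and cofactors 8 of 10 had a start call (80.0%, 49.0 to 94.3), against 41.4% of all protein-coding genes. Among these were SLC25A17, the folate and FAD carrier SLC25A32, SLC25A33, SLC25A36, the coenzyme A carrier SLC25A42 and the NAD carrier SLC25A51. SLC25A32 and SLC25A42 were called 1 and 2 bp outside their ends. SLC25A51 carried 2 reverse calls on its upper side, 30 bp inside and 227 bp outside the gene. SLC25A52, a near-identical copy of SLC25A51, held no call. Whether reads of such copies can be told apart was not tested, so this absence is uncertain.

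Of the carriers of amino acids and carnitine 5 of 9 had a start call (55.6%, 26.7 to 81.1), and the interval spans the 41.4% of all protein-coding genes. SLC25A12 was called 1 bp outside its end and SLC25A13 65 bp inside. The ornithine carrier SLC25A15 of the urea cycle was called 30 bp outside, and its relative SLC25A2 held no call. SLC25A20, which brings in acylcarnitines for fatty acid oxidation, was called 37 bp inside, without any other call nearby. SLC25A44, the carrier of branched-chain amino acids, was called 8 bp inside its 5' end.

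SLC25A44 also had an inward call 45 bp outside its 3' end, at 156212841 of chromosome 1. That call pointed away from PMF1, 166 bp outside its end, and lay 165 bp from the forward call of PMF1, 1 bp outside that gene. SLC25A44 was the only carrier of the 39 with a listed start that had such a 3' call (2.56%, against 1.33% of all protein-coding genes). Its 5' call stands without it. More than 1 start call was found for 3 carriers, SLC25A21, SLC25A44 and SLC25A51 (6.52%, against 6.36% of all protein-coding genes).

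Di- and tricarboxylate carriers link the citric acid cycle to the cytosol, and 3 of 4 had a start call (interval 30.1 to 95.4%, which spans the 41.4% of all protein-coding genes). SLC25A1 was called 30 bp outside its end and the oxoglutarate-malate carrier SLC25A11 120 bp inside. SLC25A10, the dicarboxylate carrier, had a single call, on the opposite strand and 68 bp outside its end, so that only the upstream direction of its promoter region was called. SLC25A21, the oxodicarboxylate carrier and at 494686 bp the longest member, had several calls at its 5' end. Its reverse calls lay 16, 300 and 570 bp inside the upper end. Forward calls lay 156 bp outside and 188 bp inside, so that the calls at 16 and 300 bp had divergent partners at 172 and 112 bp. The antisense gene SLC25A21-AS1 overlaps this end.

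Of the carriers for phosphate, iron, glutathione and uncoupling-like proteins 4 of 7 had a start call (57.1%, 25.0 to 84.2), and the interval again spans the 41.4% of all protein-coding genes. The phosphate carrier SLC25A3, which every respiring cell needs, was called 4 bp inside its end, with an opposite-strand call 203 bp upstream. SLC25A39 was called 4 bp outside its end with a divergent call 136 bp away, and a second forward call lay 647 bp outside, 17 bp inside the end of LOC124904009. Its paralogue SLC25A40 was called 74 bp inside. SLC25A14 was called 34 bp inside, while the brain carrier SLC25A27 and the kidney carrier SLC25A30 held no call. In the group of less certain substrate or other role 2 of 8 had a start call (25.0%, 7.15 to 59.1, spanning the 41.4% of all protein-coding genes), SLC25A35 at 30 bp and SLC25A53 at 23 bp inside.

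**Figure D3:**
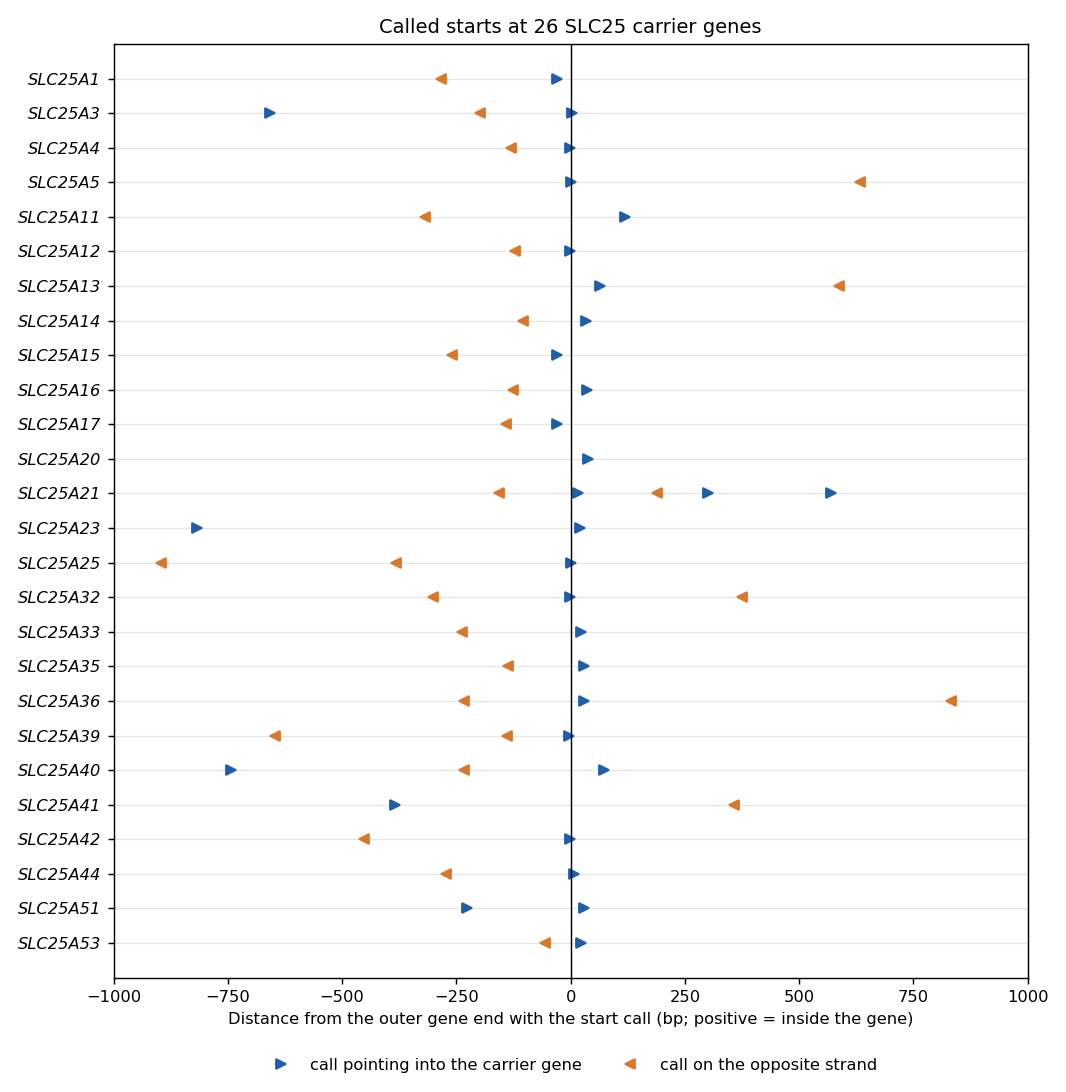
Calls within 1000 bp of the called outer end of 26 carriers with a start call, in bp, with positive values inside the gene. Blue arrowheads point into the carrier and orange ones lie on the opposite strand, and the call at the 3' end of SLC25A44 is outside the plotted range. The start calls nearest to each end run from SLC25A5 at 0 to SLC25A11 at 120 bp inside and SLC25A41 at 385 bp outside.

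Start calls lay close to the annotated ends. The median distance was 29 bp (quartiles 4 and 34.5) over the 27 carriers and 14 bp (quartiles 1 and 44) over all 8207 called protein-coding genes. Within 10 bp of the end were 9 of 27 carriers (33.3%, 18.6 to 52.2) and 45.9% of all. Within 50 bp were 22 of 27 (81.5%, 63.3 to 91.8) and 77.6% of all. Among the carriers beyond 50 bp were SLC25A11, SLC25A13, SLC25A40 and SLC25A41. Of the 27 calls 17 lay inside the gene, 9 outside and 1 on its end.

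Divergent partners, opposite-strand calls 0 to 300 bp upstream, accompanied 15 of the 27 start calls (55.6%, 37.3 to 72.4), against 50.7% of all protein-coding starts. Partner distances ran from 79 bp at SLC25A53 to 280 bp at SLC25A44, with a median of 168 bp over the carriers and 153 bp over all genes. SLC25A17 (111 bp), SLC25A12 (121 bp), SLC25A4 (130 bp), SLC25A39 (136 bp) and SLC25A14 (138 bp) had the other short distances. The partner of SLC25A53 pointed into a coding neighbour, 1 bp outside the end of FAM199X. A convergent partner, 1 to 300 bp downstream, was found for SLC25A21 alone (3.70%, against 8.12% of all).

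Just beyond the limit lay the upstream calls of SLC25A32 at 301 bp, SLC25A40 at 308 bp, SLC25A25 at 382 bp, SLC25A11 at 439 bp and SLC25A42 at 451 bp. In 3 of these the opposite call pointed into a coding neighbour. It lay 23 bp inside the end of DCAF13 for SLC25A32, 101 bp inside DBF4 for SLC25A40 and 273 bp inside RNF167 for SLC25A11. For SLC25A42 it lay 16 bp outside the noncoding gene LOC124904655. The remaining 7 start calls, among them those of SLC25A5, SLC25A13, SLC25A20, SLC25A23 and SLC25A51, had no opposite call within 500 bp upstream.

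Calls inside the gene, more than 500 bp from both ends, were found in 12 of 46 carriers (26.1%, 15.6 to 40.3), against 20.7% of all protein-coding genes. They numbered 21, or 0.876 per 100 kb of gene, against 0.667 over all. Among carriers with a listed start 9 internal calls were on the gene strand and 9 on the opposite strand. Some belonged to ends of other genes. SLC25A35 held a divergent pair of 73 bp whose forward call lay 11 bp inside the end of RANGRF.

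Some carriers without a call at an outer end had a same-strand call within 500 bp of a RefSeq start listed inside the gene. These were 5 of the 17 carriers with a listed start and without an end call (29.4%, 13.3 to 53.1), against 8.64% of such protein-coding genes. A gene whose only listed start is its outer end could not be among them, since a call there is an end call. How many such genes stand behind each share is not given, so both shares depend on the annotation too. The call of SLC25A26 lay 87.4 kb inside the lower end and 11 bp inside a listed start. That of SLC25A28, the iron carrier of non-erythroid cells, lay 38.9 kb from the upper end and 32 bp inside its listed start. SLC25A22 was called 31 bp inside the third of 4 listed starts, 2043 bp from the outer end, and SLC25A46 13 bp inside a start 862 bp from the outer end. The call of SLC25A45 lay 212 bp inside a listed start, the loosest match of the set. The single same-strand calls of SLC25A26 and SLC25A45 also lay within 500 bp of their other listed starts, at 250 and 270 bp for SLC25A26 and 463 bp for SLC25A45.

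With these starts counted, 32 of 46 carriers had a call at an end or a listed start (69.6%, 55.2 to 80.9), against 45.3% of all protein-coding genes. The general carriers, with 4 of the 5 added genes, then had 20 of 23 (87.0%, 67.9 to 95.5), and the tissue-restricted carriers 6 of 14 as before. No tissue-restricted carrier could be added, because the 11 with a listed start have it at the outer end and the others have none listed. Their unchanged count is thus set by the annotation, and the wider gap between the lists is no result about the calls. Among the carriers with a listed start 27 of 39 (69.2%, 53.6 to 81.4) had a call there, against 47.1% of all. SLC25A29, the carrier of basic amino acids, was the general carrier left with calls but no start. Its calls were 1 at 229 bp outside its 5' end on the opposite strand and a convergent pair of 228 bp about 20.7 kb inside.

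SLC25A25 had separate calls at 2 of its 3 listed starts. The outer call lay 1 bp inside the first and another 4 bp inside the last, 30.3 kb into the gene. A listed start 23223 bp into the gene had no call within 500 bp. A further forward call at 26.4 kb, with a reverse call at 26.0 kb, matched no listed start.

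**Figure D4:**
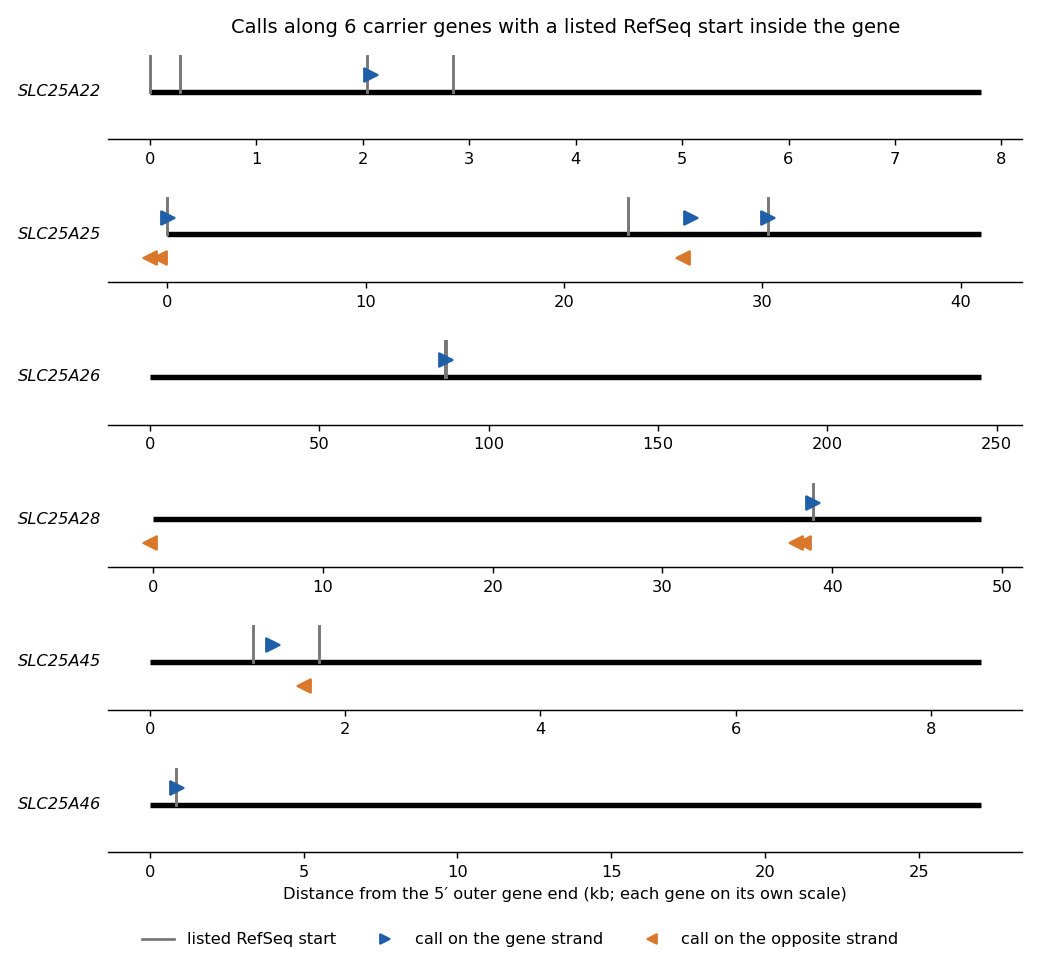
Calls along 6 carrier genes with a call at a RefSeq start listed inside the gene, in kb from the 5' outer end, with a separate scale for each gene. SLC25A24 and SLC25A48 also have a start listed inside the gene, at 7508 and 255491 bp, but held no call and are not drawn. Grey ticks are listed starts, blue arrowheads calls on the gene strand and orange ones calls on the opposite strand. In SLC25A22, SLC25A25, SLC25A26, SLC25A28 and SLC25A46 a blue arrowhead sits on an inside tick, and in SLC25A45 it lies 212 bp beyond it.

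The promoters of 4 carriers are shown from 200 bases before to 30 bases after the listed start, on the strand of the gene. SLC25A39 and SLC25A5 were called, and the testis carrier SLC25A31 and the copy SLC25A52 were not. Capitals mark matches on either strand to the motifs searched. These were GGGCGG, which SP and KLF factors bind, and the NRF1 motif, of which the capitals of SLC25A31 show the letters, with any base at the fifth position. TATAAA is the core of the TATA box. CCGGAAG is bound by ETS factors and ATTGG by NFY. The KLF1 type of CACCC box was searched as CCACACCC. The GATA site was searched as AGATAA, and the YY1 site as AAGATGGCG.
SLC25A39, chr17:44324794-44325023, reverse: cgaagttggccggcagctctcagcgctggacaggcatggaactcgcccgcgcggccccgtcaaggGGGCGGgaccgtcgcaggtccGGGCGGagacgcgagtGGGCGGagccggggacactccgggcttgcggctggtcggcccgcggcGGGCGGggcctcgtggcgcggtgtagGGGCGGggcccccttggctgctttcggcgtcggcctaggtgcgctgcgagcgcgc
SLC25A5, chrX:119468244-119468473, forward: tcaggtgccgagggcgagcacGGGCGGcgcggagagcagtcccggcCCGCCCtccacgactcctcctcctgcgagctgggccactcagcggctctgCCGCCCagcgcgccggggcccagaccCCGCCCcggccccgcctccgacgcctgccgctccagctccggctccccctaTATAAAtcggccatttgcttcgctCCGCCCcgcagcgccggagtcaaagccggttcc
SLC25A31, chr4:127730200-127730429, forward: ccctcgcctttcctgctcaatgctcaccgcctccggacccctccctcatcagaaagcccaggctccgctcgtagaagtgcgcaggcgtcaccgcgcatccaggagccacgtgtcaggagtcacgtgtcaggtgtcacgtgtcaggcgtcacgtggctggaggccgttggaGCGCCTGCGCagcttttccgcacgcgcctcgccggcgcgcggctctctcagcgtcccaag
SLC25A52, chr18:31760851-31761080, reverse: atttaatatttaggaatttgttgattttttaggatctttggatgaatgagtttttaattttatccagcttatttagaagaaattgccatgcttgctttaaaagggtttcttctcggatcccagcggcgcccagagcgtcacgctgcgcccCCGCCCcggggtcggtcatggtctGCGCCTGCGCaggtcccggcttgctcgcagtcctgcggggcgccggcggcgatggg

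SLC25A39 held 5 matches to GGGCGG in this stretch. SLC25A5 held 5 matches to GGGCGG and 1 to TATAAA. SLC25A31 held 1 match, to the NRF1 motif. SLC25A52 held 1 match each to the NRF1 motif and GGGCGG.

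Over the 300 bp windows of the promoter table, GGGCGG was found in 30 of 39 carriers (76.9%) and in 60.0% of all protein-coding promoters. Among carriers with a call at a listed start it was in 22 of 27 (81.5%), against 75.9% of called genes in general. CCGGAAG was in 8 of these 27 (29.6%, against 24.3% of called genes and 14.5% of all promoters), namely SLC25A4, SLC25A14, SLC25A17, SLC25A20, SLC25A22, SLC25A25, SLC25A26 and SLC25A46. ATTGG was in 19 of 39 (48.7%, against 36.5% of all). The NRF1 motif was in 5 of 39 (12.8%, against 8.80% of all), namely SLC25A3, SLC25A11, SLC25A31, SLC25A51 and SLC25A52. SLC25A31 and SLC25A52 had no call. Among carriers with a call at a listed start the motif was in 3 of 27 (11.1%). This share was lower than that of called genes in general (1114 of 7440). With A at the fifth position it was in none of 39 carriers and in 1.86% of all promoters.

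Rarer motifs were found in a few carriers. AGATAA was in SLC25A4 alone (1 of 39, 2.56%, against 7.38% of all). TATAAA was in SLC25A5 and in SLC25A18, which had no call (5.13%, against 9.31% of all). CCACACCC was in SLC25A22, SLC25A24 and SLC25A33 (7.69%, against 3.47% of all), and AAGATGGCG was in SLC25A3 (2.56%, against 2.93% of all). A match describes the letters only.

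Carriers with a called listed start had a median GC content of 67.0% and 27 CpG sites per window, and the 12 without one 65.8% and 23.5. Over all protein-coding genes the medians were 66.0% and 28 with such a call and 59.3% and 11 without. Uncalled carriers were of both kinds. SLC25A10 (48 CpG sites), SLC25A29 (47), SLC25A6 (40) and SLC25A24 (30) had windows as rich in CpG as called carriers. SLC25A18 (3), SLC25A47 (7) and SLC25A34 (9) had few. SLC25A45 (5 sites) and SLC25A22 (11) were the called carriers with the fewest, both at starts inside the gene.

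**Figure D5:**
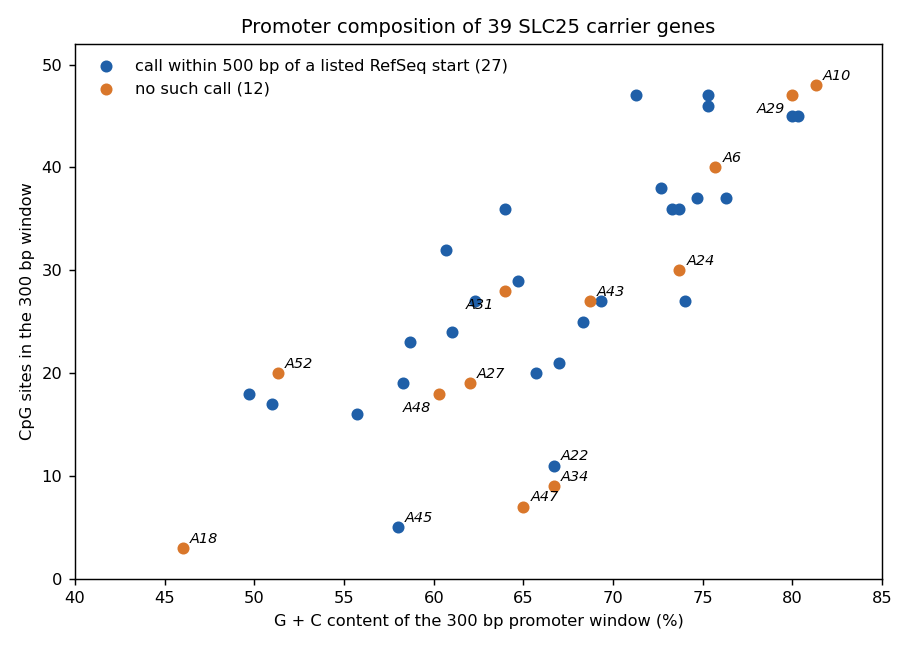
CpG sites against GC content, in percent, of the 300 bp promoter windows of 39 carriers. Blue points had a call within 500 bp of a listed RefSeq start (27) and orange points had none (12), and labels give the symbol without its SLC25 prefix. Uncalled carriers lie at both ends, from SLC25A18 with 3 sites to SLC25A10 with 48.

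Other gene lists place the carriers. Solute carriers of other families, most of them in the plasma membrane, had 115 of 338 with a start call (34.0%, 29.2 to 39.2), and mitochondrial ribosomal proteins had 70 of 77 (90.9%, 82.4 to 95.5). Of the 10 genes that import carriers into the inner membrane 9 had a start call. TIMM22, the channel of the carrier translocase, held no call, while its small partners TIMM9, TIMM10 and TIMM10B, the subunits TIMM29 and AGK and the outer membrane receptor TOMM70 were called. Of 20 other genes of mitochondrial transport 15 had a start call. UCP2 was called and the brown fat and muscle proteins UCP1 and UCP3, which belong to the same carrier family, held no call. Without a start call were also SFXN3 and the channel genes VDAC1 and VDAC2, which held 1 and 4 calls elsewhere.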

How the data were processed

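PRO-cap libraries came from run-on nuclei of 1 group with 2 replicates, per the labels. Per the submitters' processing notes the build was hg38, and the tools included deepTools 3.5.4, SAMtools 1.17, Picard and BWA 0.7.16a. The caller, its settings and the merging of replicates were unstated. The position column that the authors deposited holds other values than measurements, the 1-based coordinates of calls. The score that the authors deposited is 0 in every row. Of 26395 calls 26332 on chromosomes 1 to 22 and X were used. Genes were the 58419 entries of the RefSeq table on these chromosomes, and strand and starts came from the RefSeq promoter table (300 bp windows, 15812 protein-coding genes). A gene with a call took its window nearest to the call, others the first listed. Start, partner and internal calls are defined where first used. The steps were tested on simulated data. No test was made, and shares have 95% Wilson intervals (Python 3.11.15, statsmodels 0.14.6). Members were to be named throughout, but some items are not reported here by name and enter the counts only. The members and lists were chosen with earlier results of these data known. Alternatives were windows of 200 and 1000 bp, partner distances of 150 and 500 bp, the 5' end alone, calls nearer to another gene left out, and narrower or wider lists. The limit for internal calls was also set at 200 and 1000 bp.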

Additional observations from a re-analysis of the deposited data

How the results depend on the processing

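The count of 27 carriers with a start call was 25 with a 200 bp window, 28 with 1000 bp, and 26 of 43 without SLC25A6, SLC25A52 and SLC25A53. Of all 19821 protein-coding genes 8207 had one with 500 bp, 7570 with 200 bp and 8743 with 1000 bp. Calls at the 5' end alone gave 22 of the 39 carriers with a listed start (56.4%), against 42.9% of all protein-coding genes with one. The narrower tissue-restricted list left 2 of 8 carriers with a start call (25.0%), against 6 of 14 (42.9%), since 4 of the 6 carriers that it leaves out had one. Over all protein-coding genes the share was 41.4%, inside the interval of each list. With partners within 150 bp, 6 of 27 start calls had one (22.2%, against 24.6% of all), and with 500 bp 20 of 27 (74.1%, against 62.1%). Carriers with an internal call were 12 of 46 at the limit of 500 bp, 8 at 1000 bp and 15 at 200 bp. The share over all protein-coding genes is not given at the limits of 200 and 1000 bp. Whether the carriers exceed all genes there is thus unknown. All other counts stayed within 1.5 times. The counts with listed RefSeq starts, and those without inward calls at 3' ends, were added after seeing the data. No stricter calling threshold could be tried, since all scores are 0, and the depth that limits a missing call is unknown. No paired analysis was possible because the calls carry no replicate and there is 1 group.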

Other observations

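Over all 8207 called protein-coding genes the commonest place of a start call was 1 bp outside the gene end (1387 genes, 16.9%), followed by the end itself (797 genes, 9.71%). No other offset from 2 bp outside to 2 bp inside held more than 2.73%. Among the 27 carriers 3 lay 1 bp outside (SLC25A4, SLC25A12 and SLC25A32) and 1 on the end (SLC25A5). On both strands the step from C to A was found with its A 1 base downstream of the called base. A reader who needs the initiating base itself would want to look at the raw 5' ends before using the deposited positions to the base. Why the positions lie there was not tested.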
